A study of Rattus norvegicus with 32 samples.

Results

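The 16 Zucker-Lepr fa/fa rats (ZO) that had received a probiotic for 30 days carry a number from 21 to 57 in their titles, and the first digit of that number divided them into 4 sets of 4 rats each, 16 of the 32 rats of the series. These were Z21, Z23, Z25 and Z26 (set Z2x), Z31, Z33, Z35 and Z36 (set Z3x), Z41, Z43, Z45 and Z46 (set Z4x), and Z51, Z55, Z56 and Z57 (set Z5x). The labels call all 16 rats by the same words and do not say what a number set stands for. The methods of the study describe 4 probiotic arms, 3 single strains and a mixture of a pair of them, but no strain was assigned to a set. A difference between sets may stand for the arm, the cage, the litter or the hour of sampling, and these cannot be told apart. The sets were compared with each other and with 4 ZO rats that received placebo by mouth for the same 30 days (ZO placebo, rats Z11, Z13, Z15 and Z16). All 20 rats were male, all lacked a working leptin receptor, and the labels give 6 weeks as the age of every rat of the series. The other 12 rats, ZO rats killed at baseline and Zucker lean Lepr +/fa rats (ZL) at baseline or on placebo, entered the model only to estimate the spread.

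The intestine is lined by enterocytes, which absorb nutrients, with mucus-forming goblet cells, hormone-releasing enteroendocrine cells, chemosensing tuft cells and, in the crypts of the small intestine, antimicrobial Paneth cells and dividing stem cells. Beneath this epithelium lie fibroblasts, vessels, smooth muscle and a dense population of immune cells. Bacteria given by mouth meet this surface, and their effects on it have been sought in genes of inflammation, of the barrier and of metabolism. The sources do not name the segment of the intestine or how the mucosa was taken. A bulk sample mixes these cells, and fewer cells of a type cannot be told apart from less RNA per cell.

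RNA of the mucosa was read on Affymetrix Rat Gene 1.1 ST arrays, 1 per rat, in which a group of short probes (a probe set) gives 1 value for a transcript on a log2 scale. On this scale a difference of 1 is a 2-fold change. The arrays of the 16 rats were much alike. Pearson correlations across probe sets, which are not independent of each other, ran from 0.986 to 0.996 between pairs of arrays. The mean correlation was 0.9928 for the 24 pairs within a set and 0.9928 for the 96 pairs between sets, and for 1 of 16 rats the nearest array was of its own set. The first principal component held 18.8% of the variance between the 16 arrays, and 31.2% of that component lay between sets. The second held 15.1%, with 6.6% of it between sets, and the third 10.1%, with 12.8% of it between sets. The fourth held 7.7%, and 58.2% of it lay between sets, the largest share among these components. Z46 stood apart on the first and Z51 on the second. In Z46, 465 probe sets lay more than 2-fold from the median of the other rats, in Z51 365, and in the remaining rats between 57 and 211. Enterocyte genes were at a like level in all 16 rats, the mean of 9 measured genes spanning 0.2 on the log2 scale, and *Anpep*, the brush border aminopeptidase N, had values from 12.87 to 13.11.

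**Figure D1:**
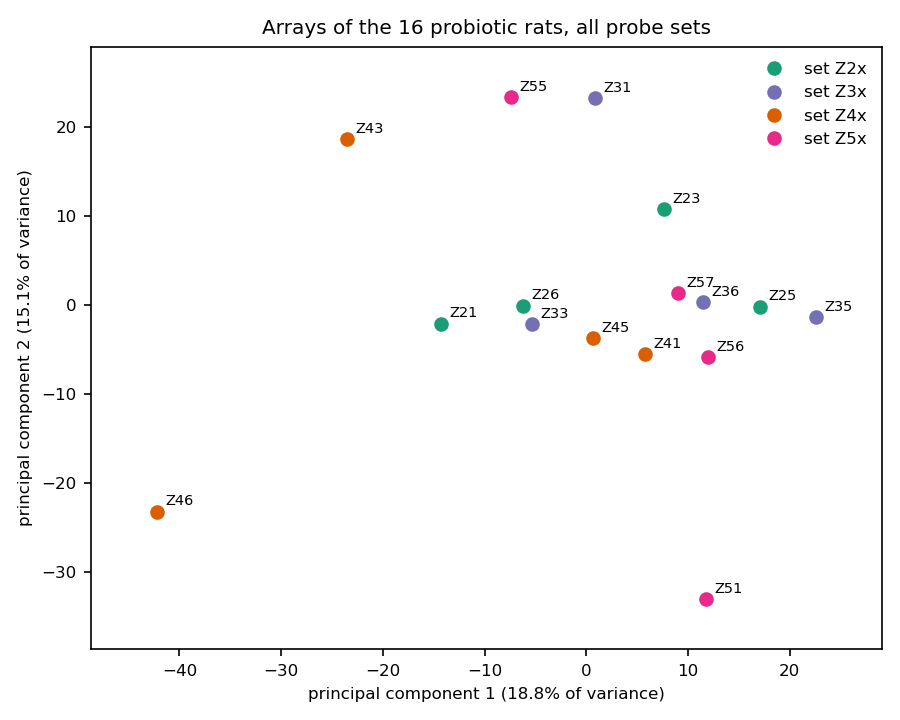
Position of the 16 arrays on the first and second principal components of all probe sets, 1 point per rat, coloured by number set. On these components rats of a set do not lie together. Z46 is at -42.2 on the first component and Z51 at -33 on the second.

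The first question was whether the 4 sets differed at all. The F test of limma, which asks of each probe set whether the 4 set means differ by more than the rats within sets, passed 0 of 29214 probe sets (0%) at an adjusted p under 0.05, and the smallest adjusted p was 0.0625. Without adjustment 1716 probe sets had a p under 0.05, 5.87% of those tested. With array weights 3 passed, after centring each array on its median 1 passed, and without Z51 1 passed. Over the 17245 genes, the median SD of the 4 set means was 0.074 on the log2 scale, and the pooled SD of rats within sets had a median of 0.15. These are unlike measures, since means of 4 rats vary less than single rats even where sets do not differ.

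The set that lay farthest from the others in the leading genes was Z4x. Of the 12 genes with the smallest p of the F test, Z4x was the set farthest from the other 3 in 11, higher in 7 of them and lower in 4, and Z5x was farthest in *Ndufb9*. In all 12 the level of Z4x lay to the same side of ZO placebo as of the other sets. The genes were picked on these same values, in 11 with Z4x farthest out, so this is not independent evidence. The folds between Z4x and the other 3 sets were small in these genes, from 1.16 to 1.41. Tested against the mean of the other 3 sets, Z4x had 5 probe sets past the threshold (0.0171%), 3 higher and 2 lower. When p-values were adjusted over all 4 such comparisons together, 0 passed. Without adjustment there were 2848 for Z4x (9.75%), 1518 higher and 1330 lower, against 1641 for Z3x (5.62%), 1642 for Z5x (5.62%) and 615 for Z2x (2.11%). With adjustment, limma passed 0 for Z3x (0%), 0 for Z5x (0%) and 0 for Z2x (0%).

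*Crip1*, the cysteine-rich LIM domain protein abundant in intestinal epithelium (chromosome 6, 138047801 to 138055672 in the assembly GRCr8), was higher in Z4x. Z41, Z43, Z45 and Z46 had 12.19, 12.18, 12.35 and 12.29 on the log2 scale. The values were 11.92 to 12.08 in Z2x, 11.97, 11.92, 11.72 and 11.79 in Z3x, and 11.52, 11.87, 11.73 and 11.92 in Z5x. The lowest Z4x rat was above all 12 other probiotic rats and above the 4 placebo rats, whose values were 12.11, 12.07, 12.02 and 11.95. The mean was 12.25 ± 0.08 (SD, n = 4) in Z4x, 0.38 above the mean of the other sets (standard error 0.06, 1.3-fold, limma adjusted p = 0.0261). The lowest values were those of Z5x, 0.27 below the other sets (limma adjusted p = 0.62).

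*Ift27*, a small GTPase of the transport machinery of the cilium (chromosome 7, 111619145 to 111635129), was lower in Z4x. Its values were 4.04, 4.16, 4.19 and 3.98 in the 4 rats of Z4x, while the other 12 rats had between 4.33 and 4.79 and the placebo rats between 4.36 and 4.58. The difference from the other sets was -0.49 (standard error 0.08, limma adjusted p = 0.0261), a 1.41-fold lower level. This is a dim probe set, since the medians of the probiotic arrays ran from 4.79 in Z51 to 4.97 in Z55.

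*Cul3*, the scaffold of a family of ubiquitin ligases (chromosome 9, 89040987 to 89118775), was also lower in Z4x, at 9.46, 9.61, 9.43 and 9.42. In this gene the groups overlapped, since Z26 had 9.60, as did the placebo rat Z16, while the other 11 probiotic rats had 9.67 to 9.88. The difference was -0.27 (standard error 0.05, limma adjusted p = 0.0391).

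The remaining calls were of probe sets that carry no gene symbol. Probe set 10700943 had 6.35, 6.13, 6.25 and 6.57 in Z4x and 5.36 to 5.92 in the other 12 probiotic rats, a difference of 0.64 (limma adjusted p = 0.0169). Of the placebo rats Z13 had 6.14, within the range of Z4x. Probe set 10700685 had 5.12, 5.62, 5.14 and 5.93 in Z4x and 3.63 to 4.94 in the other rats, a difference of 1.09 (limma adjusted p = 0.0478), and the placebo rat Z11 had 5.34.

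**Figure D2:**
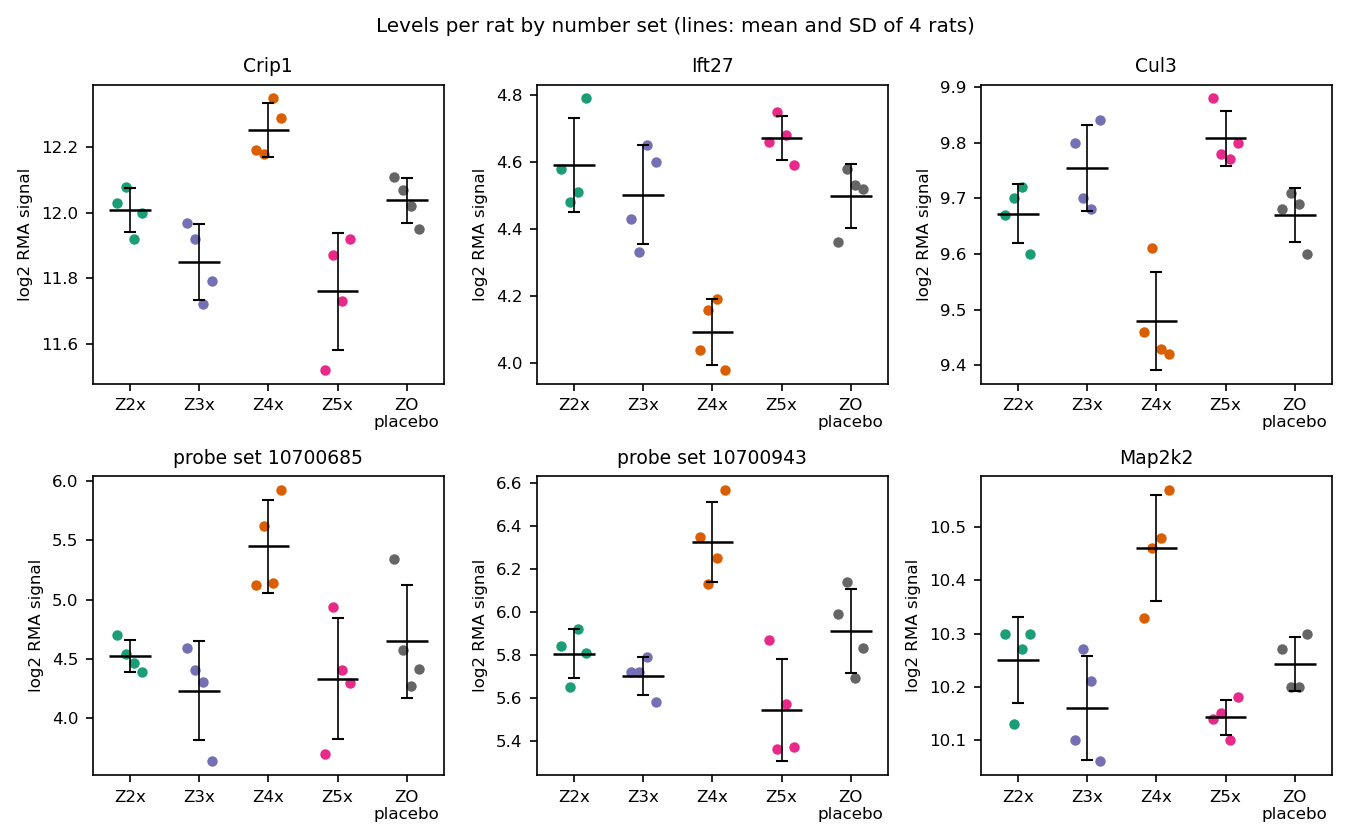
Log2 RMA signal of each rat for the 5 probe sets called in Z4x and for *Map2k2*, by number set and in ZO placebo, with the mean and SD of 4 rats. The 4 rats of Z4x lie above (*Crip1*, *Map2k2*, both unnamed probe sets) or below (*Ift27*) all other probiotic rats, except in *Cul3*, where Z43 has 9.61 and Z26 has 9.60.

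Whether these probe sets passed depended on single rats. Their differences moved less. Over all alternative fits listed below, *Crip1* lay between 0.33 and 0.40, *Ift27* between -0.53 and -0.46 and *Cul3* between -0.31 and -0.24. Probe set 10700943 lay between 0.56 and 0.71, and 10700685 between 0.86 and 1.2. With Z41, Z45 or Z46 left out, and 3 rats then in Z4x, 0 probe sets passed, and without Z43 4 passed. Without Z36 or Z56 1 passed, and without Z23, Z25, Z51, Z57 or the ZL placebo rat C13 3 passed. Without Z31, Z33 or Z35 4 passed, without Z26 5, and without Z21 or Z55 9. The direction of each of the 5 was the same in all of these, and without Z46 and Z51 together the differences of *Crip1* and *Ift27* had limma adjusted p = 0.238 and adjusted p = 0.428. No probe set passed for Z4x against ZO placebo (0%), where *Crip1* differed by 0.21 (95% interval 0.06 to 0.37) and *Ift27* by -0.40 (95% interval -0.61 to -0.19).

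The other leading genes of Z4x did not pass. *Nr1h2*, which encodes the liver X receptor beta, a sterol-sensing nuclear receptor, had 8.88, 8.74, 8.71 and 9.02 in Z4x, 8.36, 8.42, 8.47 and 8.23 in Z3x, and 8.46 to 8.86 in the other 8 rats. Set Z4x and set Z3x lay on opposite sides, 0.34 above and 0.29 below their other sets (limma adjusted p = 0.108 and adjusted p = 0.856). *Map2k2*, the MAP kinase kinase MEK2, had 10.33, 10.46, 10.48 and 10.57 in Z4x and at most 10.30 in the other 12 rats, a difference of 0.28 (limma adjusted p = 0.0795). *Rtf1*, a transcription elongation factor, had 8.50 to 8.56 in Z4x and 8.66 to 8.82 in the others, a difference of -0.21 (limma adjusted p = 0.0669). *Shroom2*, an actin-binding protein of epithelial shape, had 7.29 to 7.58 in Z4x and 6.72 to 7.22 in the others. *Fibp*, *Cdc34*, a ubiquitin-conjugating enzyme, and *Eps8l2*, a regulator of actin, were 0.35, 0.29 and 0.26 above the other sets, and *Unc119b*, a carrier of lipid-tagged proteins to the cilium, was 0.45 lower, with adjusted p from 0.0795 to 0.135 in limma.

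Counting rats in place of testing gave a similar ordering of the sets. All 4 rats lay above or all below the other 12 in 90 probe sets for Z4x (0.308%), 64 of them above and 26 below. The count was 60 for Z5x (0.205%), 59 for Z3x (0.202%) and 11 for Z2x (0.0377%). Among the 580 measured genes of the lists described below, the only ones were *Slc5a1*, the sodium-glucose cotransporter, above in Z4x (12.90 to 12.94, against 12.46 to 12.88), *Mylk*, the myosin light chain kinase, above in Z5x (8.30 to 8.45, against 7.95 to 8.22), and *Lsm3*, a splicing protein, below in Z5x (8.67 to 8.95, against 8.95 to 9.72, with Z55 just below Z26). The study named *Lsm3* on these arrays for a lower level in an arm than in placebo.

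In set Z5x, 44 of the 60 probe sets without overlap lay below the other rats. *Whamm*, a promoter of actin assembly on membranes, had 7.41, 7.57, 7.52 and 7.48 in Z5x and 7.57 to 7.97 in the other 12 rats, a difference of -0.28 (standard error 0.06, limma adjusted p = 0.306). *Agr2*, a disulfide isomerase needed for mucin folding, had 11.79, 11.97, 11.82 and 11.85 in Z5x and 11.90 to 12.11 in the others, a difference of -0.20 (limma adjusted p = 0.62). *Ndufb9*, a subunit of respiratory complex I, had 10.14, 10.07, 10.15 and 10.24 in Z5x, 10.55 to 10.98 in Z4x and 10.20 to 10.90 in the other 8 rats. Its difference of -0.47 in Z5x had a 95% interval of -0.70 to -0.23 (limma adjusted p = 0.62). *Mfap1a*, a splicing factor, was above the others in all 4 rats of Z5x (7.55 to 7.72, against 7.20 to 7.50), and *Fem1c*, a substrate receptor of ubiquitin ligases, was 0.24 above them. *Tas2r121*, a bitter taste receptor, was 0.18 above at values of 2.85 or less.

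In set Z3x, 38 of the 59 probe sets without overlap lay below the other rats. *Acvr2b*, an activin receptor, had 4.75, 4.59, 4.99 and 4.81 in Z3x and 4.98 to 5.56 in the other 12 rats (difference -0.43, 95% interval -0.64 to -0.22). *Mindy1*, a deubiquitinase, had 8.99 to 9.06 in Z3x and 9.13 to 9.70 in the others, and *Tsc22d4*, a TSC22 domain protein, 9.04 to 9.23 and 9.28 to 9.75. *Matn3*, a matrix protein, was above the others in all 4 rats at 3.17 to 3.42, against 2.79 to 3.16. *Naf1*, an assembly factor of box H/ACA ribonucleoproteins, and *C17h7orf25* were 0.39 and 0.33 above the mean of the other sets. Each of these 6 genes had limma adjusted p = 0.856 in this comparison. In *Naf1* set Z4x lay to the other side, with a difference from its other sets of -0.40 without Z46 and -0.46 without Z45.

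Set Z2x had the fewest differences. *Shisa3* had 3.44, 3.42, 3.64 and 3.48 in Z2x and 2.94 to 3.43 in the others, and *Sult1c2al1*, of the sulfotransferases, had 2.59 to 2.86 and 2.22 to 2.60. Both were dim, with values below the median of every probiotic array. *Krtap15-1* was 0.27 above the other sets. *Gja4*, a connexin of the endothelium, had 4.39, 4.62, 4.58 and 4.73 in Z2x and 4.66 to 5.11 in the others, a difference of -0.33. *R3hdm4* was split within the set, with 8.73 and 8.85 in Z21 and Z23 but 8.01 and 7.92 in Z25 and Z26, against 8.56 to 9.08 elsewhere. *Mia* was 0.24 below the other sets. All 6 had limma adjusted p = 1.

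The width of the intervals shows what 4 rats per set could resolve. The standard error of a set minus the other 3 had a median of 0.0924, and the distance from the estimate to either end of its 95% interval a median of 0.189. The interval lay within 1.5-fold either way for 93.6% of probe sets in Z2x, 92.1% in Z3x, 89.9% in Z4x and 91.8% in Z5x, and within 2-fold for 98.3% to 99.1%. For the remaining probe sets a 1.5-fold difference between sets was not excluded. These shares count all probe sets, dim ones included, and were not taken for bright ones alone. The estimate itself passed 1.5-fold for 35 probe sets in Z2x, 47 in Z3x, 148 in Z4x and 148 in Z5x.

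Gene lists of cell types and pathways showed the same picture. Of 660 genes in 48 lists, 580 were measured, and 0 of these passed in the F test or in any set against the others. At an unadjusted p under 0.05 there were 35 of 580 (6.03%), beside 1042 of all 17245 genes (6.04%). The level of a list in a rat was taken as the mean over its genes of the difference from the 16-rat mean. The set means of that level spanned under 0.5 on the log2 scale in 44 of 48 lists and at most 0.65. Beside the list medians below, the median over all genes was between -0.009 and 0.01 for each set against the others.

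Cell division genes had their lowest level in Z4x, through 1 rat. Of 16 measured genes of cell division, 8 were below the other sets in Z4x at an unadjusted p under 0.05, where 4.55% of all probe sets were, and the median difference of the list was -0.43. The level of the list was 0.09, -0.32, 0.16 and -1.28 in Z41, Z43, Z45 and Z46. Without Z46 the mean of Z4x was -0.02, in place of -0.34. *Mki67*, a marker of proliferating cells, had 9.11, 8.81, 9.31 and 7.81 in Z4x, against 8.98 to 9.71 in the other 12 rats, a difference of -0.56 with Z46 and of -0.24 without it. In the stem cell and Wnt list 7 of 12 genes were lower in Z4x in this way, and *Lgr5*, the receptor that marks crypt stem cells, had 6.26, 6.05, 6.31 and 4.72, with 5.89 to 7.08 elsewhere, a difference of -0.80 with Z46 and of -0.43 without it. The level of this list in Z4x was -0.29, and -0.05 without Z46. Set Z3x had the highest cell division level, 0.26, with 5 of 16 genes above the other sets at an unadjusted p under 0.05 (2.6% of all probe sets). The other sets include Z46, and this count is not given without it. Z31, Z33, Z35 and Z36 had list levels of 0.28, 0.01, 0.31 and 0.43. *Pigr*, the receptor that carries IgA across the epithelium, also had its ends in Z4x and Z3x, with 9.82 in Z46 and 11.57 in Z31.

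Smooth muscle genes were highest in Z5x. In that set 6 of 11 genes were above the others at an unadjusted p under 0.05, where 2.34% of all probe sets were, with a median difference of 0.54. *Myh11*, smooth muscle myosin, had 7.95, 7.41, 7.47 and 7.92 in Z5x, against 6.11 to 7.66 in the other 12 rats, so the groups overlapped. *Des*, desmin, had 7.88, 6.14, 6.38 and 7.29 in Z5x, against 5.45 to 6.86. The level of the list was 0.81 in Z51 and -0.08, 0.25 and 0.60 in the other 3 rats of Z5x, with a mean of 0.39 for the set and 0.26 without Z51. In fibroblast genes the same set ran from -0.54 in Z51 to 0.71 in Z57, and Z4x from -0.97 in Z46 to 0.26 in Z41, ranges that overlapped with those of Z2x (-0.36 to 0.50) and Z3x (-0.46 to 0.61). Without Z46 the fibroblast level of Z4x was -0.10 in place of -0.31, and without Z51 that of Z5x was 0.46 in place of 0.20.

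**Figure D3:**
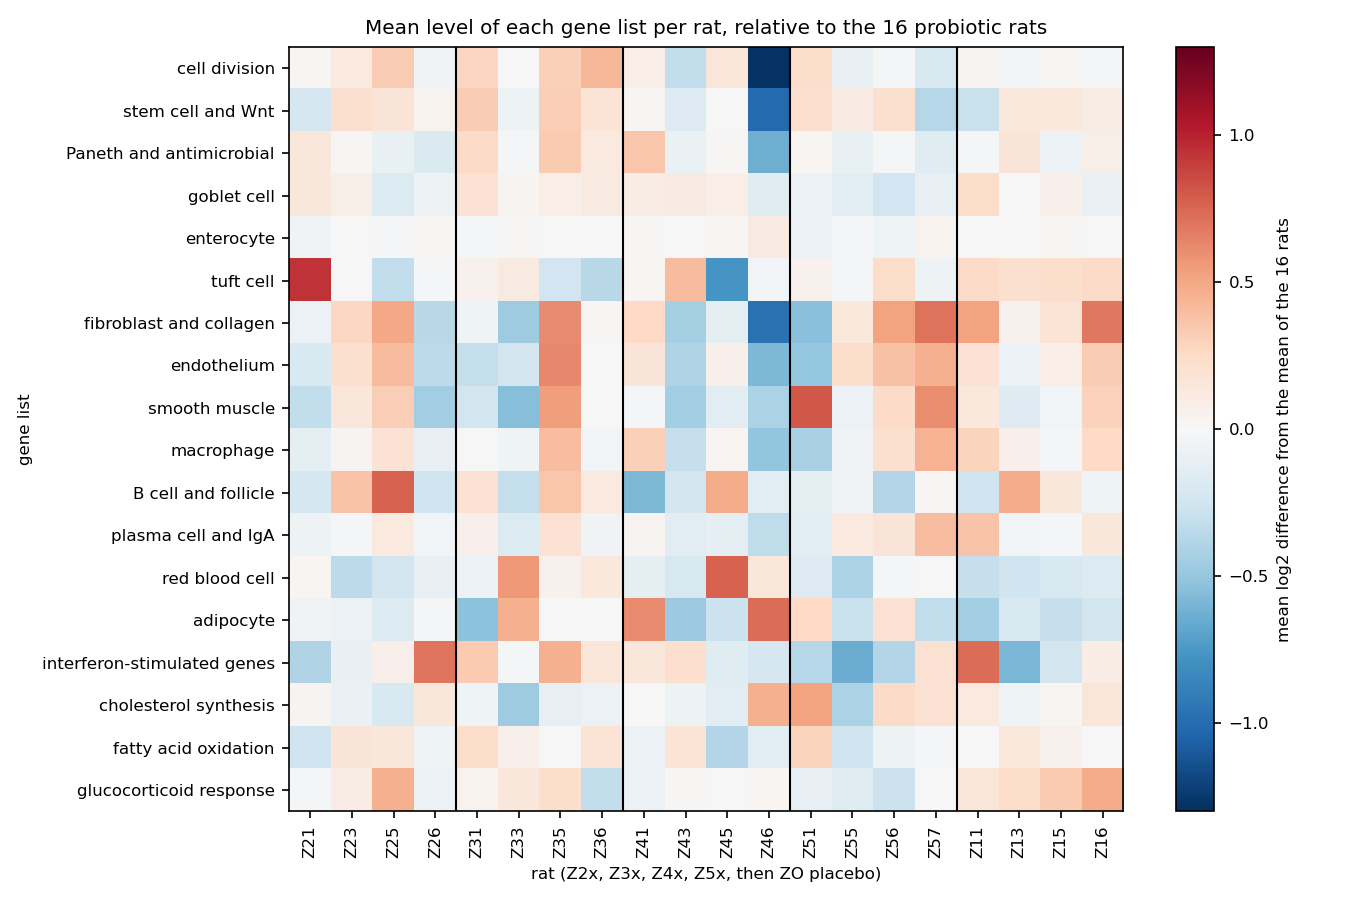
Mean level of 18 gene lists in each rat, as the log2 difference from the mean of the 16 probiotic rats, with sets separated by lines and ZO placebo at the right. The strongest colours are single rats, such as Z46 in cell division (-1.28) and Z21 in tuft cell genes (0.94), and no list has 1 colour throughout a set and another in the rest.

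Interferon-stimulated genes were lowest in Z5x and highest in Z3x. Of 21 measured genes 20 had a negative difference in Z5x, with a median of -0.41, and 6 were lower at an unadjusted p under 0.05 (3.28% of all probe sets were lower). *Mx1*, an antiviral GTPase, had 6.23, 6.20, 6.31 and 7.35 in Z5x, against 6.12 to 8.22 in the other rats. *Rtp4*, also induced by interferon, had 7.72, 7.47, 7.90 and 8.19, against 7.78 to 8.97. The study named *Rtp4* on these arrays for a lower level in an arm than in placebo, so it is not independent evidence here. Single rats spanned more than the sets, with list levels of 0.70 in Z26 and -0.39 in Z21 within Z2x and of 0.73 and -0.59 in Z11 and Z13 within the placebo group.

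Goblet cell genes were also lowest in Z5x. *Zg16*, a lectin of the mucus granule, had 12.78, 12.91, 12.90 and 12.92 in Z5x, against 12.86 to 13.13 in the other 12 rats, and *Tff3*, the trefoil factor of mucus, had 12.52, 12.25, 12.38 and 12.40, against 12.37 to 12.66. The median difference of the 8 genes was -0.17, and *Zg16* had the smallest p of the F test among all 580 list genes outside those that the study names (limma adjusted p = 0.732). *Spink4*, a goblet cell inhibitor of proteases, varied far more within sets, from 8.33 to 10.05 in Z2x alone.

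Genes of cholesterol synthesis had their highest median in Z5x and their lowest in Z3x, with all 14 genes above the other sets in Z5x and all 14 below in Z3x, by medians of 0.17 and -0.21. *Sqle*, squalene epoxidase, had 9.10, 7.44, 8.67 and 8.48 in Z5x and 8.17, 7.13, 7.88 and 8.03 in Z3x, so that both sets held 1 low rat, and Z46 had 8.96. The level of the list in Z5x was 0.14 with Z51 and 0.01 without it. Of 9 genes of vitamin D and calcium handling 8 had a positive difference in Z4x, with a median of 0.15, and 0 in Z3x, with a median of -0.11. Against ZO placebo the medians of the list were 0.13 in Z2x, -0.01 in Z3x, 0.18 in Z4x and 0.16 in Z5x. Beside 1518 of all 29214 probe sets, 2 of the 9 genes were higher than the other sets in Z4x at an unadjusted p under 0.05. The larger of these was *S100g*, which encodes an intestinal calcium-binding protein and had 12.02, 10.82, 11.44 and 11.84 in Z4x, 10.27, 10.17, 10.10 and 9.95 in Z3x, and 10.09 to 11.55 in the other 8 rats. The means were 11.53 ± 0.53 in Z4x and 10.12 ± 0.13 in Z3x (SD, n = 4 each), and the F test of limma gave adjusted p = 0.752. The other was *Slc30a10*, a manganese transporter, with 9.86, 10.01, 9.59 and 9.98 in Z4x and a difference of 0.31 (limma adjusted p = 0.448). *Trpv6*, the apical calcium channel, had a difference of 0.15 and *Vdr*, the vitamin D receptor, of 0.07. The study named *S100g* on these arrays for a higher level in an arm than in placebo.

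Lists tied to inflammation and to the barrier differed little. The 21 inflammatory mediators had medians from -0.03 to 0.11 in the sets against the others. The highest was that of Z5x, where 18 of the 21 had a positive difference. The level of this list in Z5x was 0.10 with Z51 and 0.18 without it. Of the 21 genes, 0 had an unadjusted p of the F test under 0.05, the smallest being 0.231 for *Icam1*. Genes of the sensing of lipopolysaccharide had medians from -0.06 to 0.08, and *Ticam1*, the adaptor TRIF, was highest in Z4x at 8.52, 8.52, 8.27 and 8.59, against 7.80 to 8.46 in the other rats. Tight junction genes had medians from -0.05 to 0.06, and in the lists of MHC class II, macrophage and mast cell genes the set means spanned 0.05, 0.2 and 0.2. These spans depended on single rats. The level of Z5x was 0.01, 0.05 and 0.10 in the 3 lists with Z51 and 0.12, 0.20 and 0.22 without it. The level of Z4x was 0.03, -0.12 and -0.09 with Z46 and 0.05, 0.01 and -0.04 without it.

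Much of the variation lay between rats of 1 set. *Adipoq*, *Scd*, *Car3*, *RT1-Bb*, *Btnl4* and *Tmprss15* were picked once their values were known, for a pooled SD within sets of 0.93 or more, which in *Tmprss15* came mostly from Z5x. *Adipoq*, the hormone adiponectin of fat cells, had 8.81, 4.46, 5.47 and 8.30 in Z4x, 4.38, 7.92, 6.60 and 6.81 in Z3x, 7.55, 5.58, 7.50 and 4.66 in Z5x, and 6.80, 6.57, 5.52 and 6.47 in Z2x. *Scd*, the stearoyl-CoA desaturase, followed with 10.25 in Z41 and 9.93 in Z46, 5.62 in Z57 and 5.98 in Z43. *Car3*, carbonic anhydrase 3, abundant in fat, had 10.14 and 10.05 in Z41 and Z46 and 5.58 in Z57. The sets overlapped throughout, and the F test of limma gave adjusted p = 0.999 for all 3 genes. Single rats set the sign of such differences, since Z4x minus the other sets was 0.39 in *Adipoq* and 0.18 in *Scd*, and without Z46 -0.12 and -0.35.

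*RT1-Bb* and *Btnl4* separated single rats in 3 of the sets. *RT1-Bb*, an MHC class II chain, had 7.01 in Z26, 6.33 in Z35, 7.39 in Z45 and 7.31 in the placebo rat Z16, while the other 16 rats of the probiotic and placebo groups had 10.40 to 11.46. *Btnl4*, a butyrophilin-like gene, had 3.85, 4.57, 4.42 and 4.41 in the same 4 rats and 7.65 to 9.25 in the others. Both genes lie on chromosome 20, at 4598475 to 4604118 and 4235938 to 4249413 in the assembly GRCr8. Their low rats fell 1 each into Z2x, Z3x, Z4x and placebo, and 0 into Z5x.

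*Tmprss15*, enteropeptidase, the duodenal enzyme that activates trypsinogen, was low in all of Z2x (4.05, 4.33, 4.75 and 4.0). It was higher in all of Z3x (5.75 to 6.87) and Z4x (5.81 to 6.75), and in Z5x it had 7.50 in Z57 but 3.87 to 4.19 in the other 3 rats. The placebo rats were divided likewise, with 6.91 in Z11 and 3.82, 3.98 and 4.87 in the others. Its set means spanned 2.03, and the F test gave limma adjusted p = 0.865. *Fgf19*, the ileal hormone induced by bile acids, had 7.65 in Z51 and 7.88 in Z25 and 9.02 to 11.47 in the other 14 rats.

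**Figure D4:**
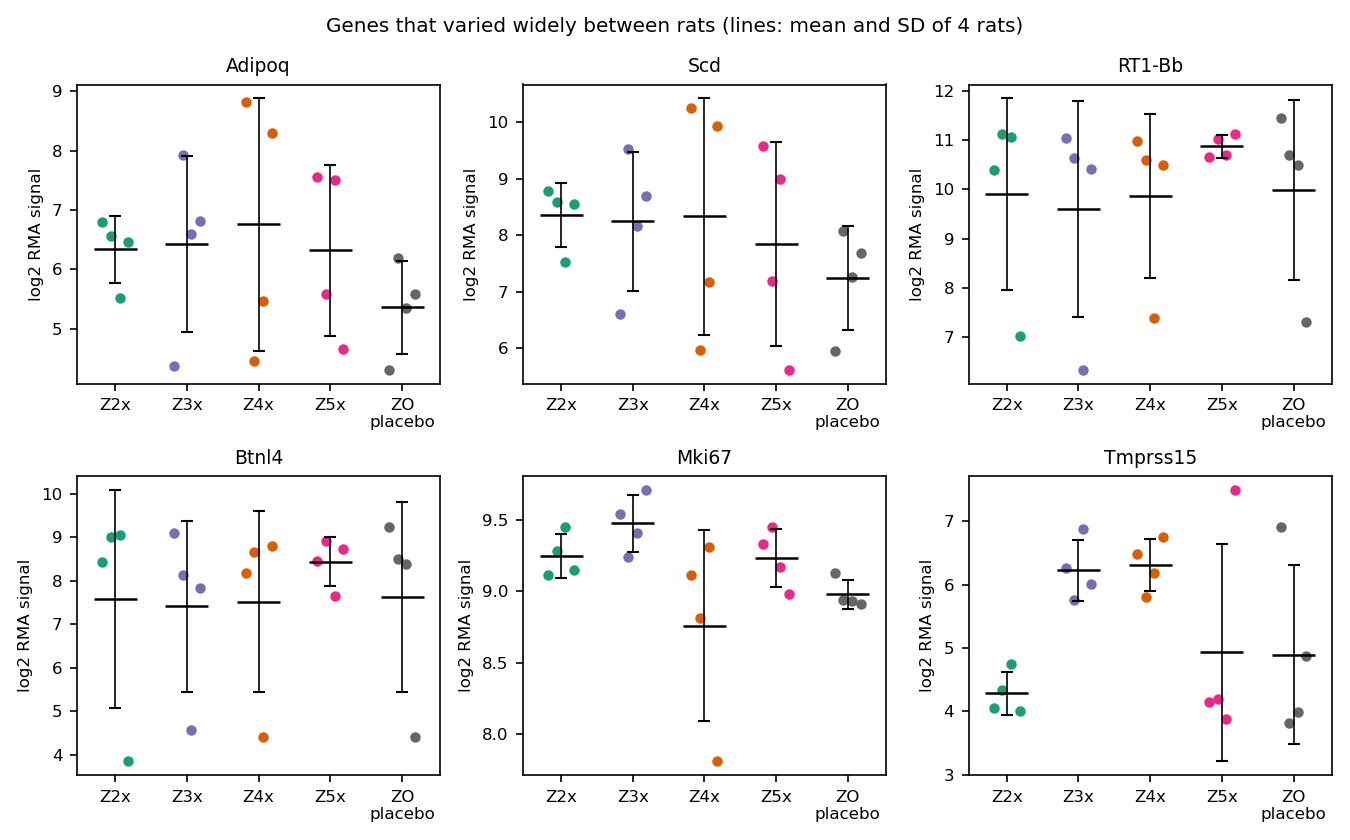
Log2 RMA signal of each rat for 6 genes that varied widely between rats, by number set and in ZO placebo, with the mean and SD of 4 rats. *RT1-Bb* and *Btnl4* show 4 low rats, 1 each in Z2x, Z3x, Z4x and placebo; *Adipoq* and *Scd* spread over the whole range within sets; *Mki67* has 1 low rat, Z46 at 7.81.

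In set Z2x, Z21 stood apart in clock genes. *Per3*, a period gene of the circadian clock, had 6.50 in Z21 and 8.67 to 9.06 in the other 3 rats of the set, 8.49 to 8.86 in Z3x and 8.81 to 9.50 in Z4x. *Dbp*, an output factor of the clock, had 8.27 in Z21 and 9.71 to 10.78 in the other 15 rats. *Nfil3*, which acts opposite to *Dbp*, had 8.23 in Z21 and 6.42 to 7.54 in the others. Z51 was the next lowest in *Per3*, at 7.77. The same rat, Z21, had the highest tuft cell level, and *Dclk1*, a marker of these cells, had 7.89 in it and 5.95 to 6.57 in the rest of its set.

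Each set was then compared with ZO placebo, which is the comparison the study made for its arms. The 4 comparisons share the same 4 placebo rats, so their values are not independent of each other. For each set, limma passed 0 probe sets at an adjusted p under 0.05 (0%). Without adjustment there were 965 for Z2x (3.3%), 957 for Z3x (3.28%), 1644 for Z4x (5.63%) and 2066 for Z5x (7.07%). The smallest adjusted p was 0.0646 in Z5x and 0.395 in Z4x. With array weights 77 probe sets passed for Z5x, without the placebo rat Z16 3, without Z25 2 and without Z56 1. The median standard error was 0.113.

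The study names 30 measured genes for its probiotics. Most of them were chosen on these arrays for the difference of an arm from placebo, so neither their direction nor a difference between sets is independent evidence. Lower than ZO placebo were 24 of them in Z2x, 22 in Z3x, 22 in Z4x and 25 in Z5x. Below it at an unadjusted p under 0.05 were 2 in Z2x, 3 in Z3x, 16 in Z4x and 11 in Z5x, where 1.25%, 1.49%, 2.18% and 3.53% of all probe sets were. The median differences from placebo were -0.18, -0.25, -0.56 and -0.30 in the same order, and 0 of the 30 genes passed in any set. In the F test among sets 10 of the 30 had an unadjusted p under 0.05, beside 5.87% of all probe sets, a count to which that choice contributes, and the smallest adjusted p was 0.636, of *Ccdc117*. The study also measured some of these genes by quantitative PCR. It reported lower *Adamdec1* mRNA than in placebo in every arm, and lower *Ptgs1* mRNA in some. Its arms cannot be matched to the sets here.

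*Adamdec1*, a disintegrin-like metalloprotease of the gut stroma and its macrophages, had an SD within sets of 0.90, the largest of the 30 genes. Its values were 8.76, 9.67, 9.65 and 8.81 in Z2x, 9.46, 8.36, 10.00 and 9.25 in Z3x, 9.37, 8.59, 8.73 and 6.52 in Z4x, and 7.81, 9.27, 9.79 and 10.03 in Z5x. The placebo rats had 9.79, 9.37, 9.62 and 10.23. The difference from placebo was -0.53 in Z2x, -0.48 in Z3x, -1.45 in Z4x and -0.53 in Z5x, but without Z46 it was -0.85 in Z4x and without Z51 -0.06 in Z5x. Z46 and Z51 also had the lowest levels of the fibroblast list, -0.97 and -0.54, which counts *Adamdec1* and *Pdgfra* among its 14 genes, and the lowest levels of the macrophage list, -0.51 and -0.42, whose part in *Adamdec1* was not tested. *Pdgfra*, a receptor of fibroblasts, was lowest in Z46 (5.22) and low in Z33 and Z51 (5.96 and 5.98). *Ptgs1*, the prostaglandin synthase COX-1, differed from placebo by -0.41, -0.49, -0.78 and -0.32 in Z2x, Z3x, Z4x and Z5x, while without Z46 the value in Z4x was -0.51 and without Z51 that in Z5x was -0.06. For *Alox5ap*, the activator of 5-lipoxygenase, the differences were -0.25, -0.39, -0.68 and -0.42. The intervals of all sets overlapped in these genes.

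**Figure D5:**
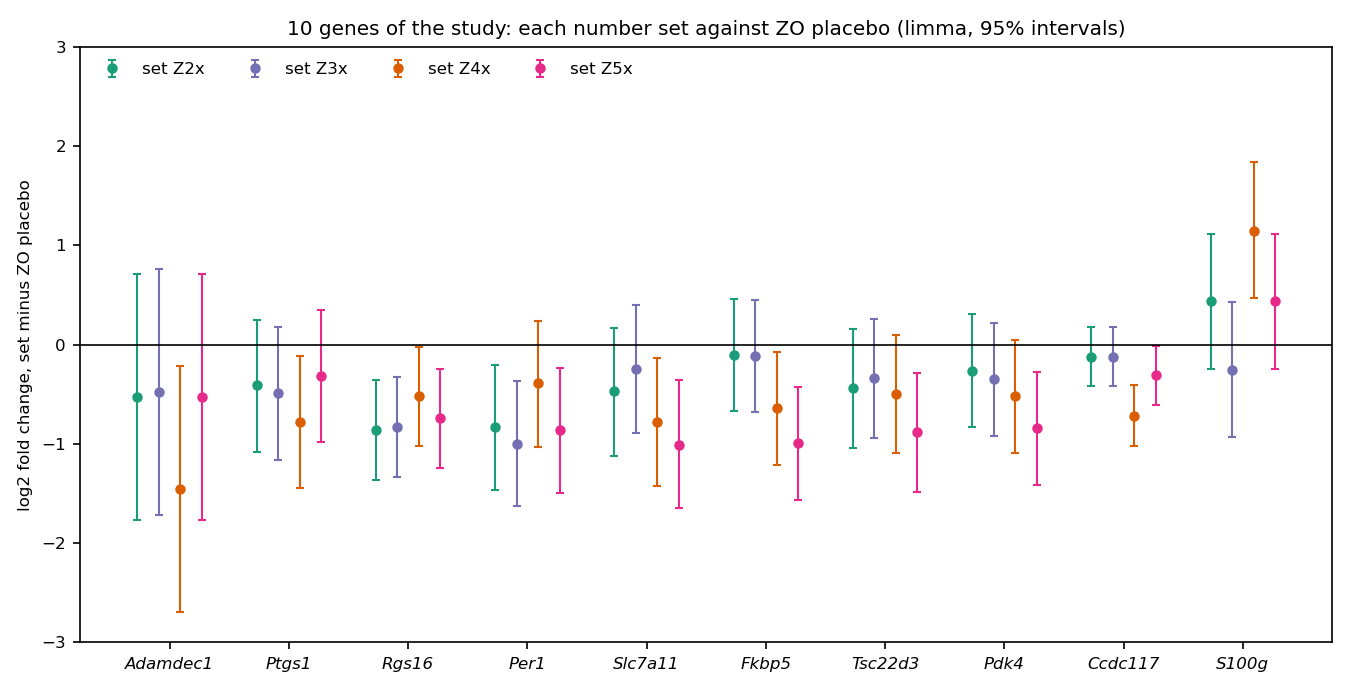
Log2 fold change of each set against ZO placebo, with 95% intervals from limma, for 10 of the genes that the study names. *Rgs16* is below 0 in all 4 sets with intervals that exclude 0, while *Fkbp5*, *Ccdc117* and *S100g* have points farther apart between sets.

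Some of these genes were lower in every set and others in some. *Rgs16*, a regulator of G protein signalling with a daily rhythm, differed by -0.86, -0.83, -0.52 and -0.74 in Z2x, Z3x, Z4x and Z5x, with 95% intervals below 0 in each and an adjusted p of the F test of 0.966. *Per1*, a period gene of the clock, differed by -0.83, -1.0, -0.39 and -0.86. *Fkbp5*, a co-chaperone induced by glucocorticoids, differed by -0.10 and -0.11 in Z2x and Z3x but by -0.64 in Z4x and -0.99 in Z5x. Its values were 8.02, 7.92, 6.89 and 8.32 in Z5x, 7.93, 8.13, 8.83 and 7.67 in Z4x, and 8.15 to 9.38 in the other 8 probiotic rats. *Tsc22d3*, the glucocorticoid-induced leucine zipper, and *Pdk4*, a kinase that restrains pyruvate oxidation, also had their largest differences in Z5x, -0.88 and -0.84. The glucocorticoid list of 11 measured genes did not single out Z5x. Its medians against placebo were -0.17 in Z2x, -0.25 in Z3x, -0.18 in Z4x and -0.21 in Z5x. Against the other sets, 5 of the 11 had a positive difference in Z5x. At an unadjusted p under 0.05, 1 was lower there (3.28% of all probe sets). *Slc7a11*, the cystine importer, differed by -0.78 in Z4x and -1.01 in Z5x, and by -0.47 and -0.24 in Z2x and Z3x.

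*Ccdc117* was lowest in Z4x, at 7.49, 7.41, 7.07 and 7.17, while the placebo rats had 7.72, 8.14, 8.10 and 8.04. The difference was -0.72 (95% interval -1.02 to -0.41, limma adjusted p = 0.395), and -0.68 without Z46. The other probiotic rats had 7.45 to 8.12, so Z4x overlapped with Z26. *Mpzl1*, a cell surface glycoprotein, was lowest in Z46 at 5.80, and its difference in Z4x was -0.81 with that rat and -0.58 without it. *S100g* ran the other way, 1.15 above placebo in Z4x (95% interval 0.47 to 1.84) and 1.05 without Z46, with a difference of -0.25 in Z3x.

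Single rats set some of the values of Z4x. *Aldh1a1*, a retinal dehydrogenase, had 5.65 in Z45 and 6.84 to 7.44 in the other rats of Z4x, and without Z45 its difference from placebo was -0.44 in place of -0.82. *Lrrc49* had 5.01 in Z45, and its difference was -0.37 without that rat and -0.75 with it. The haemoglobin gene *Hbb* was highest in Z45 (8.66) and Z33 (8.47), and 6.34 to 7.49 in the other 14 rats. None of these differences passed in limma.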

How the data were processed

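RNA of the intestinal mucosa of 32 rats was hybridised by the authors to Affymetrix Rat Gene 1.1 ST arrays, 1 per rat. Their methods name RMA, which corrects background, makes the distributions of the arrays alike and gives 1 log2 signal per probe set. Expression Console (Affymetrix) is the software listed in the submitters' processing notes, and a genome build is not given in the sources used here. What was deposited is a score: all but 161 of 934848 values had lost the decimal point of the log2 signal. The design had assumed log2 values. A point was therefore restored, behind digit 2 in values that start with 10 to 13 and behind digit 1 in the rest. This put 63652 values at 10 or above, of which 8 lay closer to the median of their probe set when read as 1, and 0 of these 8 were in the 16 rats. Arrays have no read depth, and the number of rats limits the precision.

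Gene names came from the annotation of the platform. Of 29214 probe sets, 18644 carry a single symbol, 962 several and 9608 none. They stand for 17245 genes, and the 879 genes with several probe sets are given by the probe set of the highest mean. Of the gene IDs, 18460 were found in the rat gene reference (GRCr8). A few genes are not reported here.

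Rats were grouped by the first digit of the number in their titles. Means of 8 groups were fitted over all 32 arrays in R 4.3.3 by the functions lmFit, contrasts.fit and eBayes of limma 3.58.1, which left 24 residual degrees of freedom. Tested were the F test over the 4 sets, each set minus the mean of the other 3, and each set minus ZO placebo. The comparisons of a set with the other 3 depend on each other, since every set enters all of them. The p-values were adjusted over all probe sets within a comparison by the Benjamini-Hochberg method, with a threshold of 0.05 and no minimum fold. The p-values set a difference against the spread of single rats within the 8 groups. Nothing says whether rats of a set shared a cage or litter, and the p-values take no account of either. The fit was tested on simulated data. Alternatives were quantile normalization, centring of arrays on their median, dropping the dimmest 30% of probe sets, 1 probe set per gene, only the groups compared, array weights, the last digit of the number as a replicate block, adjustment over the 4 comparisons together, and leaving out single rats. Leaving out Z46 and Z51 together was added after the data were seen. Same last digits did not pair the rats: deviations from the group means correlated above 0.1 in 5 of 21 same-digit pairs, with a range of -0.27 to 0.3.

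Named are the 12 genes with the smallest p of the F test, up to 6 genes in each direction for a set against the others (the 3 with the smallest p where none passed), up to 6 members of a list by the p of the F test, and the genes that the study names. The sets, lists and tests were chosen with earlier results of these data known.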

Additional observations from a re-analysis of the deposited data

Results flagged for a closer look

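Among 316 groups of 4 rats (leading genes and gene lists by set), the highest or lowest rat lay far from the other 3, by a gap above the Dixon critical value at the 95% level, in 16, or 5.1%, and chance flags about 1 in 20. Among genes, Z23 was low in *Map2k2* (10.13, the others at 10.27 to 10.30), *Whamm* (7.64, the others at 7.78 to 7.81) and *Tsc22d4* (9.28, the others at 9.45 to 9.48) within Z2x. Z51 was high in *Fibp* (8.48, the others at 8.30 to 8.32), *Naf1* (5.61, the others at 5.30 to 5.33) and *Mfap1a* (7.72, the others at 7.55 to 7.57) within Z5x. Z46 was low in *Agr2* within Z4x (11.98, the others at 12.08 to 12.09), Z31 was low in *Tsc22d4* within Z3x (9.04, the others at 9.21 to 9.23), and Z33 was low in *Tas2r121* within Z3x (2.50, the others at 2.65 to 2.67).

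Among the lists, with levels as log2 differences from the mean of the 16 rats, Z35 had -0.29 in MHC class II genes (the others of Z3x at 0.04 to 0.08) and 0.40 in macrophage genes (the others at -0.06 to 0.00). In the first list *RT1-Bb* alone had 6.33 in Z35. Z33 had -0.46 in cholesterol synthesis (the others of Z3x at -0.11 to -0.06). Z51 had -0.28 in ileal genes (the others of Z5x at -0.05 to -0.01), and *Fgf19* had 7.65 in it. Z46 had -0.16 in goblet cell genes (the others of Z4x at 0.09 to 0.12), Z45 had -0.07 in eosinophil and neutrophil genes (the others of Z4x at 0.03 to 0.05), and Z26 had 0.07 in ion transport and guanylin genes (the others of Z2x at -0.01 to 0.00). The last pair of gaps is under 0.15 on the log2 scale.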

How the results depend on the processing

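Counts of probe sets past the threshold stayed low in all but 1 alternative. The F test passed 0, against 1 after centring, 3 with array weights and 0 to 1 when 1 rat was left out. For Z4x against the other 3 sets, 5 passed, against 3 with 1 probe set per gene, 2 with the last digit as replicate block (1 shared with the 5), 0 when adjusted over the 4 comparisons together, 0 to 9 when 1 rat was left out (3 without the ZL placebo rat C13), and 0 without Z46 and Z51 together. A model of only the 4 sets also passed 5, of which 2 were shared. Of the 26 alternatives, *Crip1* kept its call in 18, *Ift27* in 17 and *Cul3* in 10, and of 25 probe set 10700943 kept it in 19 and 10700685 in 6. Z5x against the other sets passed 0, against 1 with array weights and 0 to 2 when 1 rat was left out. Z5x against ZO placebo passed 0, against 1 with quantile normalization, 1 in a model of only the 4 sets and ZO placebo, 77 with array weights and 0 to 3 when 1 rat was left out. The causes were not tested. The remaining comparisons of sets, Z2x and Z3x against the others and Z2x, Z3x and Z4x against ZO placebo, passed 0 under every alternative run. The block passed 0 in the F test and in each other comparison, and 3 of 16 rats correlated best with their own last digit. For single genes, 8926 values stayed on their side of the threshold, 58 fell short of it and 3 passed it (*Crip1* in the F test after centring and with array weights, *Whamm* in Z5x without Z45), and each of the 5 probe sets called in Z4x kept its direction. Uncalled differences could change sign, as in *Slc7a11* in Z4x against the others, at -0.20 with Z46 and 0.01 without it.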
